A study of Mus musculus with 4 samples.

Results

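Isolated narrow SSRP1 peaks were taken from the 2 peak lists of this series. A peak was a member if it lay on an autosome, was under 1000 bp wide, shared at least 1 bp with a peak called in the other replicate, and belonged to a merged site with no other peak of either list within 50 kb. This selected 446 of 7353 peaks, which formed 224 sites. Replicate 1 contributed 226 of its 5011 peaks and replicate 2 contributed 220 of its 2342. Sharing, width and spacing chose the members, so these properties and the strength that goes with them are given as descriptions, without tests.

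SSRP1 was mapped by ChIP-seq, in which an antibody pulls down a protein with the DNA it is crosslinked to and the DNA is sequenced. It was done in E14 cells, a long-established pluripotent stem cell line from mouse, kept in medium with serum and LIF, and no treatment or genetic change is stated. The labels name 2 ChIP samples made with an antibody to SSRP1 and 2 input samples, from chromatin fixed with 1% formaldehyde for 10 min. They do not say whether the replicates were separate cultures, so the spread between the lists may be technical. Only the ChIP samples' peak lists were analysed here.

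SSRP1 pairs with SPT16 in FACT, a histone chaperone that loosens nucleosomes by handling H2A-H2B dimers ahead of polymerases and helps to rebuild them behind. SSRP1 also carries an HMG box, a domain that binds DNA with little regard to its sequence. FACT is known for coverage spread along transcribed genes, whereas a narrow lone peak marks one spot with no second enriched stretch nearby. A summit is the base with the most fragments stacked over it, and the fold is the authors' enrichment at that base over the local background. A fold describes and ranks peaks within its own list, and 2 folds set side by side compare the lists, not binding in the cells.

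Lone narrow peaks were found again in the other list at different rates. Replicate 1 held 1553 narrow autosomal peaks with no neighbour within 50 kb, and 226 of them (14.6%, exact 95% binomial interval 12.8 to 16.4%) overlapped a peak of replicate 2. The share over all 4654 narrow autosomal peaks of that list was 24.4%. Replicate 2 held 455 such lone peaks, of which 220 (48.4%, 43.7 to 53.1%) were found in replicate 1, against 50% of its 1985 narrow autosomal peaks. These intervals, like all given here, cover counting error only. Of the 224 sites, 218 consisted of exactly 1 peak in each list, and 6 held 3 or more peaks. In 9 sites the strongest peak of at least 1 list was 1000 bp or wider, and only narrower peaks of the site were members.

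The typical isolated site was modest. Fold enrichment had a median of 5.49 in replicate 1 (interquartile range 4.25 to 7.45, range 2.07 to 104) and 6.28 in replicate 2 (5.06 to 8.51, range 2.65 to 54.0). The median peak width was 336 bp in replicate 1 and 306.5 bp in replicate 2. Behind the median summit stood 28 ChIP fragments in replicate 1 (range 12 to 359) and 53 in replicate 2 (range 29 to 400). These fragment numbers were recovered from the deposited fold and p-value of each peak. At 114 sites (50.9%) the lower of the 2 folds was under 5, and the share over all 1158 autosomal shared sites was 50.8%. The weakest site by its lower fold was on chromosome 14 at 8077163 to 8077608 (mm9, as all positions here, counted from 1). Its fold was 2.07 in replicate 1 from 35 fragments and 4.61 in replicate 2 from 53 fragments, and its summits lay 173 bp apart.

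A small group of very strong sites stood at the other end. Both folds were 10 or more at 25 sites (11.2%), against 8.03% of all autosomal shared sites, and 20 or more at 15 sites (6.70%), against 1.81%. Put the other way, 21 autosomal shared sites of any width and spacing had a fold of 20 or more in both lists, and 15 of them (71.4%, 95% interval 47.8 to 88.7%) were isolated and narrow. With a fold of 30 or more it was 11 of 12. Among the 588 shared sites whose lower fold was under 5, 114 (19.4%, 16.3 to 22.8%) were isolated and narrow. The isolated narrow peaks made up 4.60% of replicate 1's autosomal list but 9 of its 10 peaks with the highest −log10 q. In replicate 2 they made up 9.73% of the list and 8 of the highest 10. By the time 200 peaks were counted their share was 20.5% in replicate 1 and 18.5% in replicate 2.

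**Figure D1:**
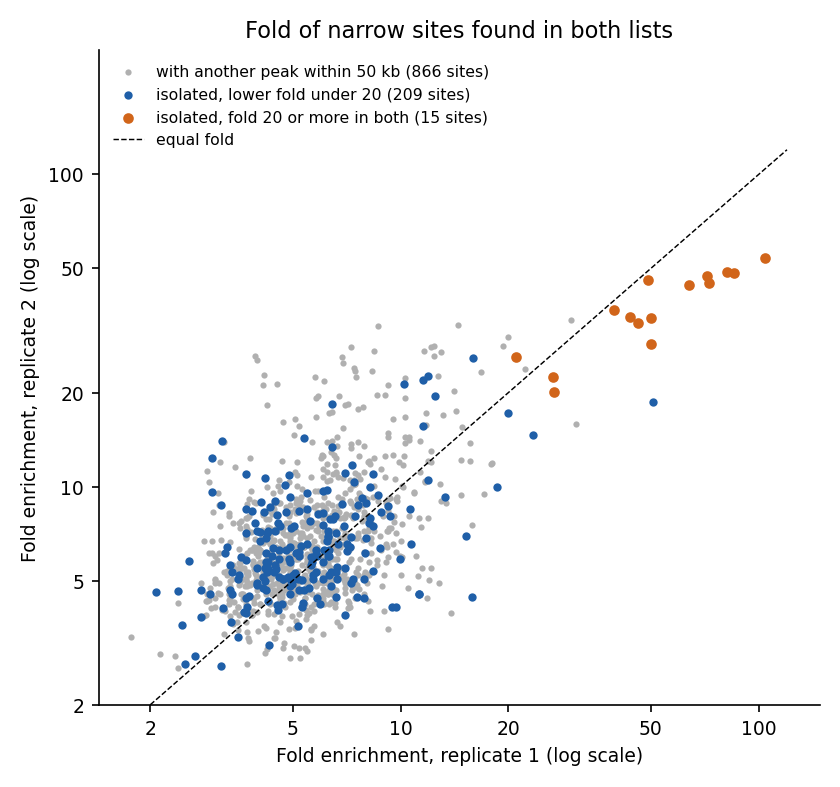
Fold enrichment in replicate 1 (x, log scale) and replicate 2 (y, log scale) for narrow sites found in both lists, 1 point per site: 224 isolated sites in colour and 866 sites with another peak within 50 kb in grey. The 15 sites in orange have a fold of 20 or more in both lists, and 14 of them lie below the line of equal fold.

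The strongest isolated site was on chromosome 7 at 10910676 to 10911323, with the nearest other peak 472 kb away. Its summit held 359 fragments in replicate 1 and 396 in replicate 2, for folds of 104 and 54.0. The 2 summits lay at 10911004 and 10911023, 19 bp apart in peaks of 626 and 594 bp. The local background was 2.46 fragments in replicate 1 and 2.07 in replicate 2, close to the lowest background anywhere in each list (2.28 and 2.07). All replicate 2 backgrounds given here are on a scale where 1 of its ChIP fragments counts as 0.416. Its fragment counts are unscaled, so they cannot be divided directly by its backgrounds. The highest stack under any summit of the series was 385 fragments in replicate 1 and 400 in replicate 2, so this site came close to both while its background was ordinary.

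The second site, on chromosome 9 at 4138779 to 4139327, held 294 and 356 fragments, with folds of 81.5 and 48.5. Its summits were 12 bp apart. The third, on chromosome 6 at 68749141 to 68749727, was nearly as strong, with 295 and 355 fragments and folds of 85.6 and 48.4. There the summits differed by 6 bp. The fourth lay on chromosome 3 at 112893742 to 112894437 and had summits 4 bp apart, with 235 fragments in replicate 1 and 346 in replicate 2. Its folds were 72.0 and 47.2. All 3 had the higher fold in replicate 1, but neither list had the wider peak throughout.

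The fifth site, on chromosome 12 at 25109793 to 25110330, had the most even folds of the leading 7, at 49.1 and 45.8. Its summits lay 25 bp apart. The sixth was on chromosome 17 at 21938369 to 21938830, where the 2 peaks were 460 and 458 bp wide and the summits 14 bp apart. Its folds were 72.9 and 44.9. Chromosome 2 carried 3 of the 12 strongest sites. These were at 98170105 to 98170626 (folds of 64.1 and 44.2), 23146544 to 23147000 (39.3 and 36.8) and 39662221 to 39662684 (50.0 and 34.8), with summits 9, 10 and 15 bp apart in that order.

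The other 3 of the 12 were on chromosomes 7, 8 and 13. The site on chromosome 7 at 27274470 to 27274999 had the highest local background of the 15 sites with a fold of 20 or more, at 5.73 fragments in replicate 1 and 3.60 in replicate 2. It still held 293 and 383 ChIP fragments. The site on chromosome 8 at 95993519 to 95993967 had peaks of 436 and 437 bp with summits 5 bp apart, and folds of 46.1 and 33.5. The site on chromosome 13 at 13127229 to 13127672 was the most isolated of the 12, with no other peak of either list within 2948 kb. Its summits were 2 bp apart and its folds were 50.0 and 28.6.

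The very strong sites shared a shape, which is given as a description. The selection had set the limit of 1000 bp and an overlap of at least 1 bp between the lists. The class itself was chosen by fold. In the 15 sites with both folds at 20 or more, peaks were 353 to 696 bp wide in replicate 1 and 388 to 1019 bp in replicate 2, with medians of 460 and 501 bp. The summit sat a median of 10.5 bp from the middle of the peak in replicate 1 and 10 bp in replicate 2, against 30 and 25 bp over all isolated sites. The 2 lists' peaks overlapped over a median of 91.0% of their joint length, against 71.8% over all isolated sites. Their starts differed by a median of 25 bp and their ends by 19 bp. Similar medians were seen at the 3 narrow shared sites of this fold class that had another peak within 50 kb. They were weaker, with a median lower fold of 22.3 against 36.8. There the summit lay a median of 7 and 11 bp from the middle, and the median overlap was 87.2% (range 15.7 to 87.3%). In replicate 1 their widths reached 3032 bp and the distance from summit to middle reached 1238 bp. The shape was therefore not shown to be particular to isolated sites, and 3 sites are too few to settle it. The local background was at most 2 times the lowest of its list in both lists at 14 of the 15 sites. The exception was the site on chromosome 7 at 27274470.

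**Figure D2:**
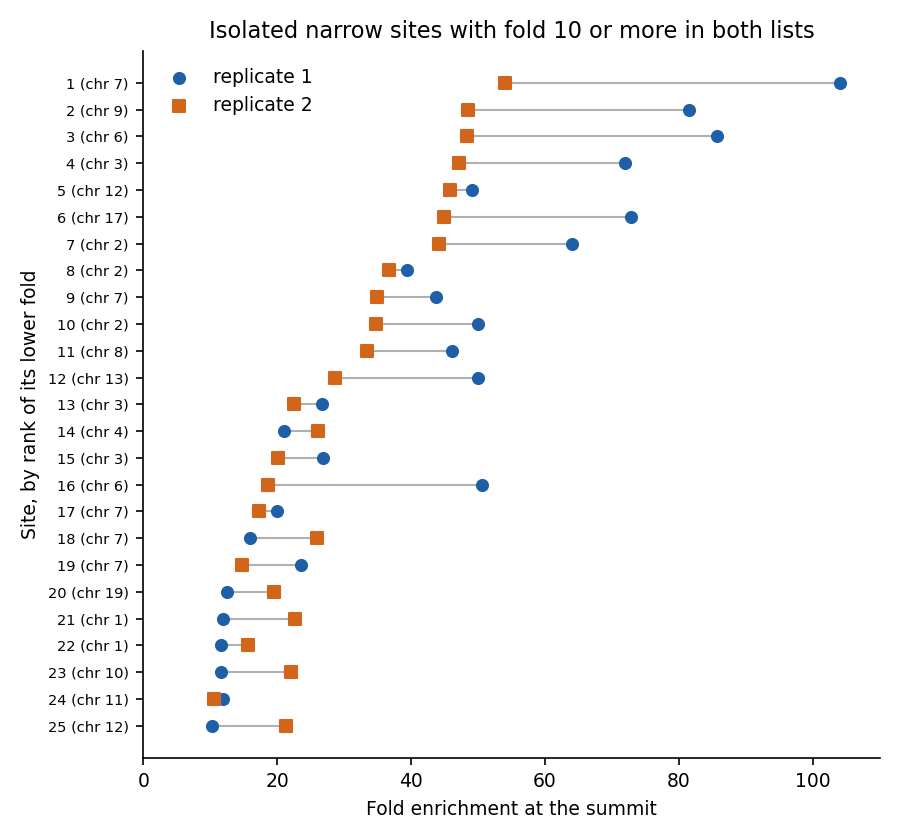
Fold enrichment (x) in replicate 1 (blue circles) and replicate 2 (orange squares) for the 25 isolated narrow sites with a fold of 10 or more in both lists, ordered by the lower fold and labelled with rank and chromosome; the grey line joins the 2 values of a site. Replicate 1 is higher in 18 of the 25 sites, including the first 13.

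By fold, the 15 strongest sites leaned to replicate 1, unlike the isolated sites as a whole. Over all 224 sites the fold was higher in replicate 2 at 138 (61.6%), against 64.9% of all autosomal shared sites, with a median log2 ratio of replicate 2 over replicate 1 of 0.15 (95% interval of the median 0.09 to 0.27). At the 15 sites with both folds at 20 or more it was higher in replicate 2 at 1 site only, on chromosome 4 at 80975593 to 80976611, whose folds were 21.0 and 26.1. The median log2 ratio there was −0.52. Replicate 2 was higher at 6 of the 10 sites with a lower fold of 10 to 20, at 45 of the 85 from 5 to 10, and at 86 of the 114 under 5 (75.4%). Among neighboured narrow sites, which have another peak within 50 kb, it was higher at 27 of 39 from 10 to 20 and at 3 of 3 of 20 or more. With the recovered fragments divided by the lowest background of each list the lean of the whole group turned round. On that scale 84 of 224 sites (37.5%) were higher in replicate 2, against 41.1% of all autosomal shared sites, and the median log2 ratio was −0.21. The 15 strongest had a median of −0.66 on it, again with 1 site higher in replicate 2. Of the 114 sites under 5, 44 (38.6%) were then higher in replicate 2. In the recovered values each fragment of replicate 2 counted as 0.416 and each of replicate 1 as 1. The strongest sites approached the 400 fragments that no summit of replicate 2 exceeded, and the part of this in their lower folds there was not tested.

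The order of the sites was partly shared between the lists. Across the 224 sites Spearman's rho between the 2 folds was 0.48 and Pearson's r of log2(fold + 1) was 0.81. Without the 15 strongest sites they were 0.36 and 0.49, so that the higher r rested on those sites. For fragments over the lowest background rho was 0.73, and 0.66 without the 15 strongest. These are correlations across sites of 2 libraries and carry no test. Of the 25 sites with both folds at 10 or more, the one with the most unequal folds was singled out after its values were seen. On chromosome 6 at 58280730 to 58281176 the fold was 50.6 in replicate 1 and 18.7 in replicate 2, from 165 and 177 fragments. The site on chromosome 1 at 184430862 to 184431506, the strongest of its chromosome, leaned the other way with folds of 11.9 and 22.7.

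Summits of the isolated sites fell close together. The median distance between the lists' summits was 29 bp (95% interval of the median 23 to 40 bp, interquartile range 9.75 to 76 bp). Summits lay within 10 bp of each other at 58 sites (25.9%), against 14.2% of all autosomal shared sites. They lay within 50 bp at 142 sites (63.4%, 56.7 to 69.7%), against 46.5%, and within 100 bp at 179 sites (79.9%), against 65%. At 3 sites both lists gave the same base. The median distance was 10.5% of the width of the shorter peak.

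Agreement of the summits went with strength. The median distance was 42 bp at the 114 sites with a lower fold under 5, 30 bp at the 85 sites from 5 to 10, 12.5 bp at the 10 sites from 10 to 20, and 12 bp at the 15 sites of 20 or more. All 15 of the last group had summits within 50 bp, the farthest being 50 bp apart on chromosome 3 at 28012766 to 28013291, a site named after its value was seen. In the group under 5 it was 61 of 114 (53.5%). Strong summits rest on more fragments, with medians of 213 and 324 in the 2 lists at a fold of 20 or more against 23.5 and 44.5 under 5, and the part of this difference in depth was not tested. Across sites, Spearman's rho between the lower fold and the distance was −0.24, and −0.18 without the 15 strongest.

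Narrow shared sites with another peak within 50 kb served as the comparison. There were 866 of them. Their folds had medians of 5.42 in the first list and 6.15 in the second, beside 5.49 and 6.28 at the isolated sites. Many contained wider peaks too, so summits were compared where the strongest peak of both lists was under 1000 bp. The median distance was then 28 bp at 215 isolated sites (23 to 38 bp) and 56.5 bp at 646 neighboured sites (50 to 66 bp). Summits within 50 bp were found at 64.2% of the first (57.4 to 70.6%) and 46.3% of the second (42.4 to 50.2%). Within strength classes over all widths, the share within 50 bp was 53.5% against 34.7% under a lower fold of 5, and 67.1% against 48.7% from 5 to 10. From 10 to 20 it was 9 of 10 against 26 of 39. These classes also differed in peak width. From 5 to 10 the median widths were 377 and 322 bp at isolated sites against 512 and 508 bp. From 10 to 20 they were 425.5 and 409.5 bp against 823 and 749 bp. The part of width in these shares was not tested. At 20 or more the share within 50 bp was 15 of 15 against 3 of 3. Median distances there were 12 and 14 bp, so no difference was seen in that class. Where both strongest peaks were under 1000 bp, peaks of the isolated sites were also narrower, with medians of 325 and 305 bp against 368.5 and 375 bp. Relative to the shorter peak the distance was then 10.4% against 19.02%. Both sets were chosen by how peaks were called, so the difference is given without a test.

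**Figure D3:**
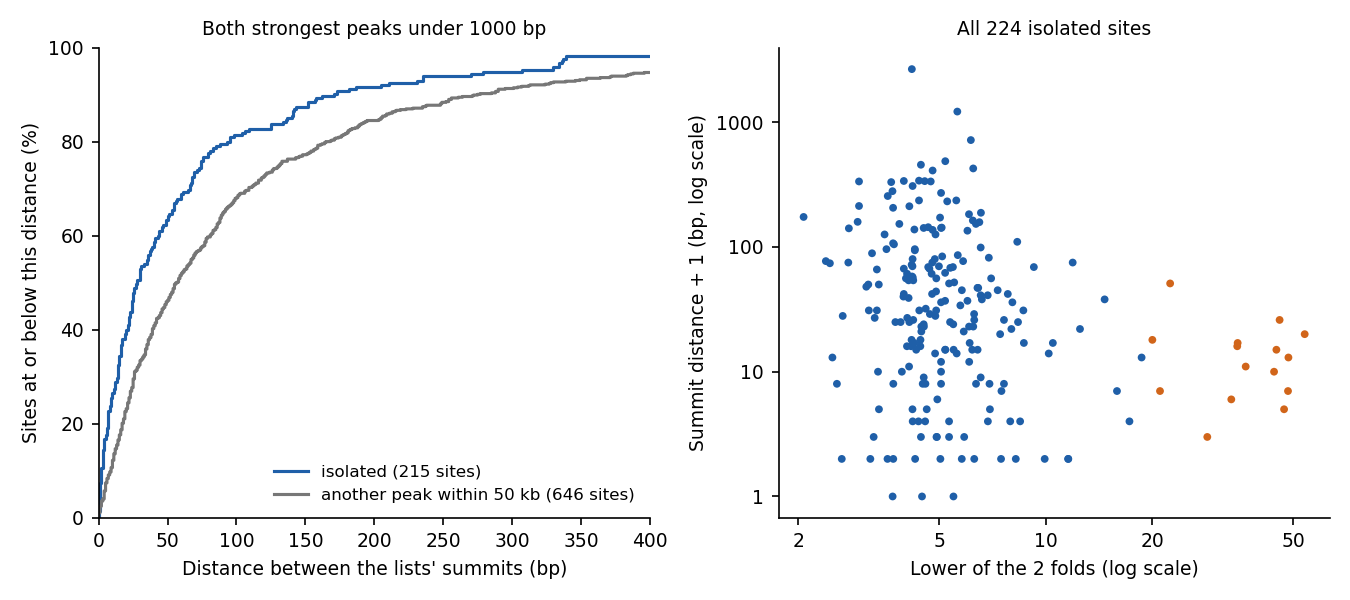
Left, cumulative share of sites (y, %) by the distance between the 2 lists' summits (x, bp, drawn to 400 bp) for 215 isolated and 646 neighboured sites whose strongest peaks were both under 1000 bp; the isolated sites reach 64.2% at 50 bp and the neighboured ones 46.3%. Right, distance + 1 bp (y, log scale) against the lower of the 2 folds (x, log scale) for the 224 isolated sites, with the 15 sites of fold 20 or more in orange, all at 50 bp or less.

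Summits were over 200 bp apart at 23 sites (10.3%), against 20.6% of all autosomal shared sites. Of these, 18 were plain pairs with 1 peak in each list, among 218 such pairs, and 5 were among the 6 sites with more peaks. The farthest pair was 2663 bp apart, on chromosome 17 at 39979976 to 39985753. There replicate 1 had 3 peaks and replicate 2 a single peak of 5769 bp, so that only narrow peaks of replicate 1 were members. Its folds were 4.52 and 4.19 over local backgrounds of 62.3 and 39.0 fragments. Next came a site on chromosome 3 at 123208602 to 123211246, named after its value was seen, which joined 3 peaks of replicate 1 and 2 of replicate 2, and the strongest summits were 1216 bp apart. The replicate 2 summit lay at the lower coordinate at 129 sites (57.6%) and at the higher one at 92 (41.1%). Over all autosomal shared sites these shares were 50.3% and 48.7%.

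Isolated sites differed widely in local background. At 125 sites in replicate 2 (55.8%, against 51.3% of all autosomal shared sites) it was no higher than the lowest of the list. In replicate 1 it was so at 35 sites (15.6%), against 6.74% of all autosomal shared sites. At 72 sites (32.1%) it was over 2 times the lowest in at least 1 list, against 33.5% of all autosomal shared sites. At 25 sites (11.2%, 7.35 to 16.03%) it was over 2 times in both lists, against 6.65% of all autosomal shared sites. This held for 48 of the 866 neighboured sites (5.54%, 4.11 to 7.28%). By MACS2's usual formulas this background is the largest of several local averages and a genome-wide one. The library it was taken from is not given in the labels.

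The 25 sites with a high background in both lists were low in fold and yet deep. Their folds had medians of 3.76 in replicate 1 and 5.73 in replicate 2, and none reached 10 in both lists. The medians of 74 and 144 ChIP fragments were above those of all isolated sites, at 28 and 53. Their summits lay a median of 14 bp apart (95% interval of the median 7 to 26 bp), near the 12 bp of the strongest sites. They were spread over 14 autosomes. The following 3 were picked after their values had been seen, as the highest in replicate 1 apart from the chromosome 17 site of 3 peaks described above. On chromosome 3 at 5860375 to 5860755 the background was 77.8 fragments in replicate 1 and 39.0 in replicate 2. With 251 and 391 ChIP fragments it had a stack like that of the leading sites but folds of only 3.20 and 4.09, and the summits were 1 bp apart. Each of the 391 replicate 2 fragments counted as 0.416 against the background there. On chromosome 11, the site at 3093064 to 3093388 had backgrounds of 44.2 and 27.5 and folds of 2.50 and 2.71. A site on chromosome 9 at 123370962 to 123371249 had backgrounds of 41.0 and 22.0, folds of 3.58 and 5.94, and summits 1 bp apart. Of the 12 isolated sites with over 200 fragments in both lists, 9 had a fold of 20 or more in both, and the rest were sites of high background.

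**Figure D4:**
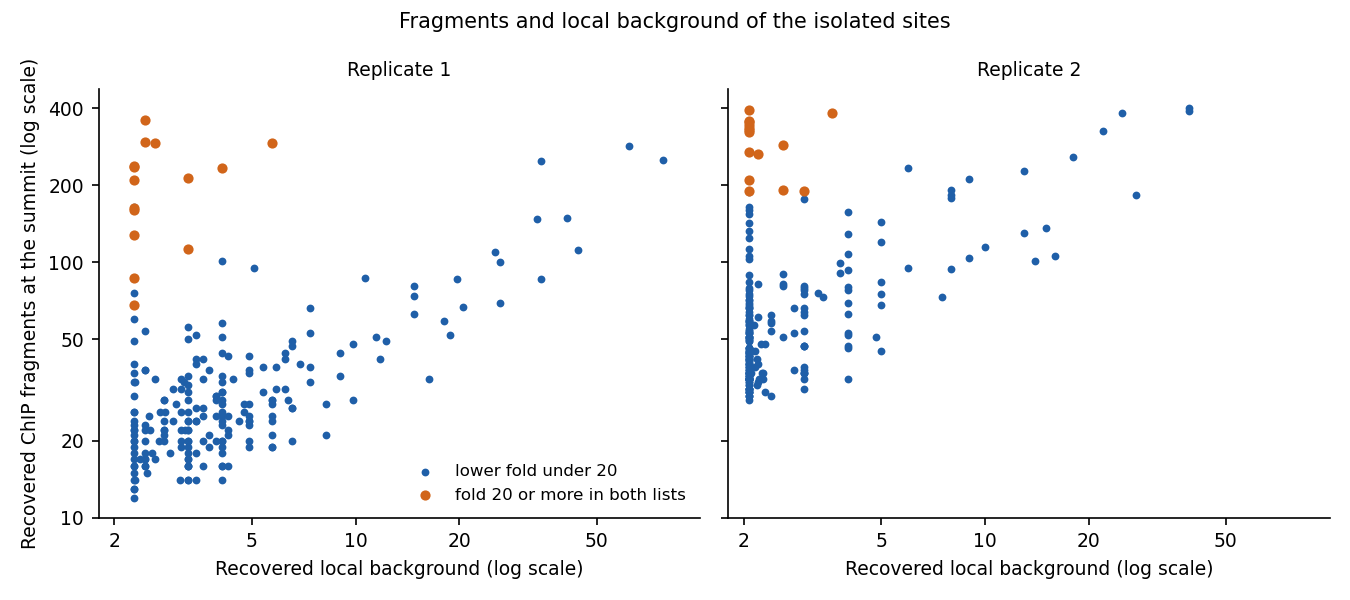
Recovered ChIP fragments at the summit (y, log scale) against the recovered local background in fragments after scaling (x, log scale) for the 224 isolated sites, in replicate 1 (left) and replicate 2 (right); the 15 sites with a fold of 20 or more in both lists are orange. The orange sites stand at backgrounds of 2.28 to 5.73 and 2.07 to 3.60, while other sites with over 200 fragments lie to their right. Fragments (y) are unscaled, and in replicate 2 each counts as 0.416 on the scale of the background (x).

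Isolated sites occurred on all 19 autosomes. Chromosomes 2 and 11 held the most, with 17 each (7.59% of the sites), and chromosome 19 the fewest, with 4 (1.79%). Of all autosomal peaks, chromosomes 2, 11 and 19 held 7.36%, 8.74% and 3.18%. Per 100 Mb of the stretch spanned by peaks there were 9.46 sites over all autosomes. The lowest density was 5.65 on chromosome 10 (7 sites, exact 95% Poisson interval 2.27 to 11.6) and the highest 14.4 on chromosome 11 (17 sites, 8.39 to 23.1). These intervals overlap. The number of sites per chromosome went with the spanned length (Spearman's rho 0.69, Pearson's r 0.75 over 19 chromosomes) and with the number of all peaks (0.74 and 0.74).

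The share of narrow shared sites that were isolated was lower on chromosomes dense in peaks. It was 15.5% (95% interval 9.27 to 23.6%) on chromosome 11, which had 5.31 peaks of both lists per Mb, and 14.3% on chromosome 17 with 4.93 peaks per Mb. It was 35.7% (18.6 to 55.9%) on chromosome 16, with 1.84 peaks per Mb, and 34.5% on chromosome 14 with 1.83. The highest share was on chromosome 18, at 38.1% (18.1 to 61.6%) with 2.49 peaks per Mb. The lowest was on chromosome 13, where 9 of 82 narrow shared sites were isolated (11.0%, 5.14 to 19.8%) at 3.33 peaks per Mb. Across the 19 chromosomes the share and the peak density had a Spearman's rho of −0.74. Dense chromosomes leave fewer places that are free of neighbours, so this relation is partly set by the rule.

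**Figure D5:**
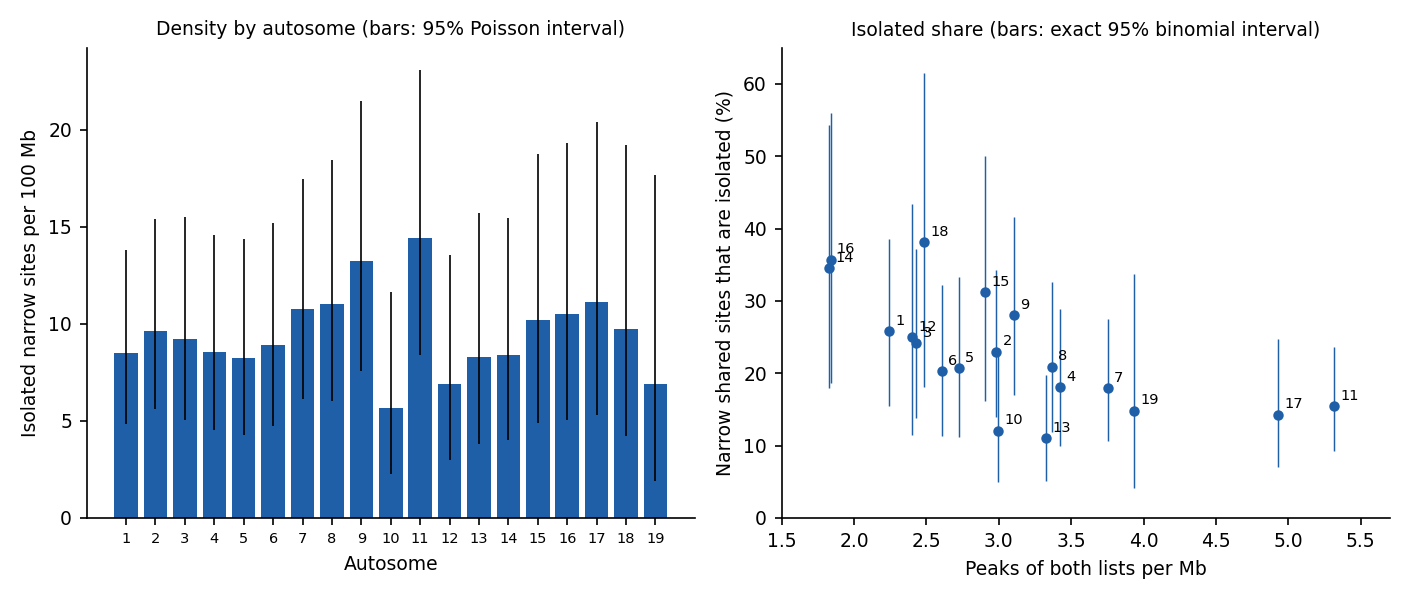
Left, isolated narrow sites per 100 Mb of spanned length on each autosome, with exact 95% Poisson intervals as lines; chromosome 11 is highest at 14.4 and chromosome 10 lowest at 5.65, with overlapping intervals. Right, share of narrow shared sites that were isolated (y, %, exact 95% binomial intervals) against peaks of both lists per Mb (x), labelled by chromosome; the highest share is 38.1% on chromosome 18 and the lowest 11.0% on chromosome 13, neither of them at an end of the density range.

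Strong sites were not limited to a few chromosomes. The 25 sites with both folds at 10 or more fell on 14 autosomes and the 15 with folds of 20 or more on 10. Chromosome 7 held 5 of the 25, and chromosomes 2 and 3 held 3 each. Chromosomes 5, 14, 15, 16 and 18 had none. Their strongest isolated sites were modest. The one on chromosome 5 (22939357 to 22940088) had folds of 6.28 and 6.96, and the one on chromosome 16 (13976843 to 13977189) had 9.23 and 8.68. Chromosome 11, with the highest density of isolated sites, had its strongest at 55283225 to 55283972, where the folds were 11.9 and 10.5.

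Most sites were farther from other peaks than the limit required. The nearest other peak was a median of 200 kb away (interquartile range 101 to 451 kb), 170 sites had none within 100 kb, 49 none within 500 kb and 26 none within 1000 kb. The most isolated site was on chromosome 1 at 147954034 to 147954354, with 3498 kb to the next peak. Its folds were 18.6 and 9.94 and its summits 1 bp apart. The 25 sites with folds of 10 or more were a median of 403 kb from the next peak. Successive isolated sites of a chromosome lay a median of 7295 kb apart, from 74.5 to 37278 kb.

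The values on both sides of the limits were as follows. The isolated site nearest to the distance limit was on chromosome 11 at 53163933 to 53164744, with 50.1 kb to the next peak and folds of 4.91 and 4.79. Just beyond it, a site on chromosome 13 (110860248 to 110860776) had 49.8 kb and folds of 5.10 and 8.89. The widest member peak was 946 bp, called in replicate 2 on chromosome 13 (59240286 to 59241231), and its fold was 7.64. The narrowest shared lone peak above the width limit was 1019 bp, also in replicate 2, and it was the chromosome 4 peak with a fold of 26.1 described above. Its partner in replicate 1 was 615 bp wide, so the site was counted through that peak.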

How the data were processed

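The 2 peak lists, 1 per SSRP1 ChIP sample, were called separately, as the deposited peak names show. The submitters' processing notes name STAR, MACS2, deepTools and the build mm9, without roles. The sources used here give no versions, settings or control libraries. The deposited fold is a ratio at the summit over the local background, and the authors also give −log10 p and −log10 q values. In 100% of peaks the score the authors deposited equalled 10 times −log10 q with decimals dropped, so it added nothing. Other deposited columns are positions, read with Python 3.11.15, pandas 2.3.3, numpy 2.4.6 and scipy 1.17.1.

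Overlapping peaks of both lists were merged into sites, and each site was described by the peak of highest fold of each list. Intervals are exact binomial (Clopper-Pearson), order-statistic for medians, or exact Poisson. Fragments and background were solved from fold = (pileup + 1) / (background + 1) and the Poisson tail of the p-value, MACS2's usual formulas. Pileups were whole fragments within 0.01 in 100% of peaks, with 1 fragment worth 1 in replicate 1 and 0.416 in replicate 2. The 0.416 was chosen from many trial values for giving whole fragments, so in replicate 2 this share is no check of the recovery. Depth over summits had medians of 19 and 44 fragments, and read totals were not used here. Site selection and fragment recovery were tested on simulated data. That simulation held only low backgrounds and left out p-values as extreme as those of the strongest replicate 1 peaks. Recovery at high backgrounds and at such p-values was therefore not tested by it. Named sites are the 12 highest lower folds, extremes, edges and each autosome's strongest site. Members and comparisons were chosen with earlier results of these data known. No test was made, as the selection used the same peak calls. Sequences and genes at the sites were not analysed here, as the genome and gene tables used are not of mm9. Alternatives varied isolation distance, width, overlap, q-value, background and fold scale.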

Additional observations from a re-analysis of the deposited data

How the results depend on the processing

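Of 68 recomputed values, 61 stayed within their interval or within 1.5 times the count, 6 moved and 1 reversed. The number of sites was 301 and 170 with isolation distances of 20 and 100 kb and 152 without sites of high local background, and all 19 autosomes kept a site in every alternative run. The reversal came with fragments over the lowest background, where the median log2 ratio of the lists went from 0.15 to −0.21. Without sites of high local background it was 0.042, and replicate 1's median fold was 6.28. With −log10 q of 5 or more the median folds were 6.26 and 7.44, and the share with summits within 50 bp was 70.3%. That filter also removed neighbouring peaks, so that 30 sites had a fold of 10 or more in both lists instead of 25, and these changes were not separated. Raising the strong class to a fold of 20 left 15 of 25 sites by construction. The restriction to sites with both strongest peaks under 1000 bp was chosen after the data had been seen. Leaving out a replicate gives no value, as the selection needs both lists. No paired analysis was possible because numbers are shared only between ChIP and input samples, and inputs were not analysed here. Summits rested on as few as 12 fragments in replicate 1 and 29 in replicate 2, and what depth does to their position was not tested.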

Other observations

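The same selection on the sex chromosomes, which the account above leaves out, gave 10 isolated narrow sites on X among 137 peaks of both lists and 1 on Y among 40. On X the median folds were 7.63 in replicate 1 and 7.23 in replicate 2 and the summits lay a median of 17 bp apart. The strongest X site by its lower fold was at 144074228 to 144074572, with folds of 25.6 and 17.1 and summits 3 bp apart. The X site at 103382031 to 103382696 had the highest fold in replicate 1, at 36.5, and 16.03 in replicate 2. The Y site had folds of 4.18 and 5.07.

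Lone narrow autosomal peaks of 1 list only numbered 1327 in replicate 1 and 235 in replicate 2. Their median folds were 4.42 and 5.20, against 5.38 and 6.22 for the lone narrow peaks found in both lists. The strongest of replicate 1, on chromosome 4 (82593519 to 82593837), had a fold of 13.8 from 49 fragments. That of replicate 2, on chromosome 18 (81991913 to 81992327), had 12.5 from 90 fragments. No lone narrow peak of 1 list alone reached the fold of 20 that 15 shared sites passed in both lists.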
